A study of Mus musculus with 2 samples.

Results

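Processed pseudogenes are copies of a messenger RNA that was reverse-transcribed and inserted elsewhere in the genome, so they lack the introns of the parent gene and usually its promoter. Housekeeping genes with abundant, short messages, such as those of ribosomal proteins, have left many such copies in mammalian genomes. A young copy can differ from its parent by few bases or none, and short reads from the parent message then match both places equally well. A quantification program has to divide such reads between parent and copy.

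The genes described here were the 147 of 9940 annotated processed pseudogenes, 1.48%, with at least 5 TPM (a transcript level scaled for effective length and depth) in both deposited gene tables. A gene counted as a processed pseudogene where all of its transcripts carried that annotation type. The levels of the first of 2 quantification programs therefore chose the genes, and those levels are given as a description. The series measured polyadenylated RNA of mouse hippocampus (the tissue label reads layer of hippocampus) in 1 group of 2 libraries, called replicate 1 and replicate 2 as in the labels. Both came from adult B6NCrl mice (C57BL/6 in another label) aged 6 months, with no treatment or genotype named in the labels, 20 ng of RNA per library, and fragmentation by Nextera tagmentation. The labels call the tissue male in the description and give the sex field as not collected. Both libraries carry the same donor identifier and separate biosample identifiers, so nothing shows that they came from separate animals, and the SD of 2 values measures only the spread between these libraries. The group has no contrast, so no test of a condition was possible.

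Depth was alike in both libraries, with 38921662 expected counts in replicate 1 and 39499350 in replicate 2 by the first program, and 55151358 and 55608083 estimated counts by the second. Hippocampal markers were present in both libraries. Camk2a, a kinase of glutamatergic neurons, was at 1545 TPM ± 193 (SD, n = 2), Mbp of oligodendrocytes at 2288 ± 208, Gad1 of interneurons at 122 ± 2.18 and Prox1 of dentate granule neurons at 12.9 ± 1.70. The choroid plexus gene Ttr stood at 14956 TPM in replicate 1 and 117 TPM in replicate 2. Hba-a1 of red blood cells was at 7.30 and 5.39 TPM.

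The 147 pseudogenes held 1.50% ± 0.0109 (SD, n = 2) of all TPM and 0.283% ± 0.00463 of all expected counts in the first program. In the second they held 1.17% ± 0.0727 of TPM and 0.346% ± 0.0361 of estimated counts. Most other processed pseudogenes were given no level by the first program: 8147 of the 9940 were listed at 0 TPM in replicate 1 and 8215 in replicate 2. The median of the 147 mean levels was 18.3 TPM, the lowest 5.26 and the highest 2563. The 27 pseudogenes at 100 TPM or more were a minority, and 44 had a mean level under 10 TPM. The highest 10 held 64.6% of the summed level of all 147. A mean expected count of at least 50 was reached by 126, and 21 were below it.

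The levels near the threshold were close to each other. Just inside it stood Apoo-ps with 7.35 and 5.05 TPM in replicates 1 and 2, Gng5-ps with 5.44 and 5.08, and Gm9762 with 5.35 and 5.18. Just outside it stood Gm12411 with 5.16 and 4.93, Gm4613 with 4.90 and 5.38, and Gm15361 with 5.55 and 4.90.

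Each of the 147 transcripts was aligned to the protein-coding transcripts of the GENCODE M21 annotation, and the best alignment named its parent. All 147 had one, and the parent transcripts had between 2 and 18 exons (median 5), while 145 of the copies had a single exon. Exons were counted over the whole parent transcript, and of equal alignments the transcript with more exons was taken. The contrast therefore does not show a lost intron for each copy. The alignments covered the whole copy in 137 cases. A total of 54 copies were identical to the parent over their whole length, 122 had an identity of at least 99%, and 8 were under 97%. The lowest identity was 85.4%, in Gm13687, a copy of Mrps36. The alignment lay within the coding part of the parent message over at least 90% of its length in 138 copies.

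The 147 copies traced to 129 parents, 13 of which had 2 or more copies in the set. Rpl35a, a protein of the large ribosomal subunit, had the most with 5. Those 5 copies (Gm10243, Rpl35a-ps2, Rpl35a-ps3, Rpl35a-ps4 and Rpl35a-ps6) had the same sequence and were given equal levels, each 6.92 TPM in replicate 1 and 7.18 TPM in replicate 2 by the first program and 0.0939 and 0.131 TPM by the second. In all, 9 of the 147 shared their whole sequence with another of the set. For 3 copies a second coding gene matched as well as the named parent.

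To measure how much sequence a copy could call its own, each transcript was cut into all its overlapping words of 31 bases, and a word counted as the copy's own where it occurred in no transcript of another annotated gene. Of the 147 pseudogenes, 68 (46.3%) had no own word. Among the 9791 other processed pseudogenes with a word of this length, 394 (4.02%) had none. The median share of own words was 1.34% in the set and 85.3% in the others. The rule did not use sequence, but the program that gave the levels did, since reads are placed by it.

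**Figure D1:**
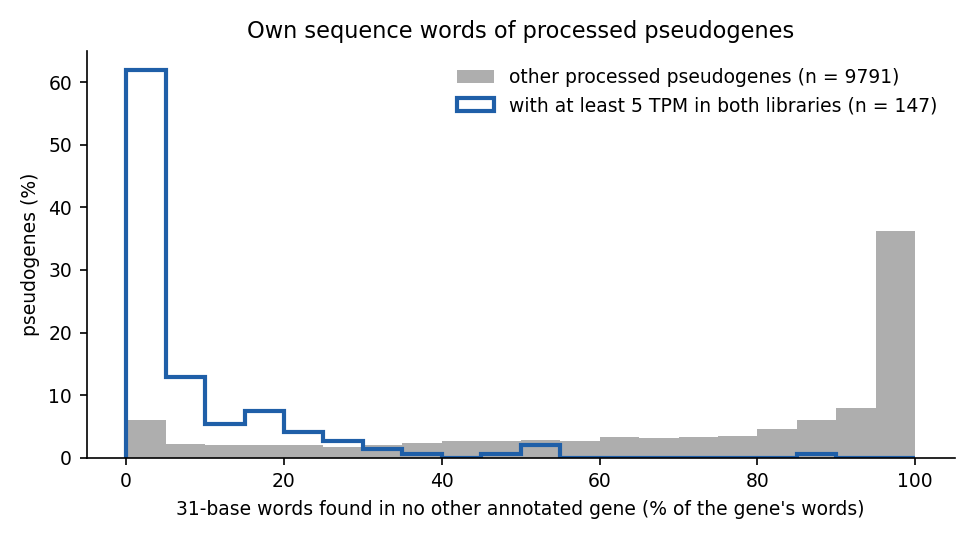
Share of 31-base words found in no other annotated gene (x axis, percent of a gene's words) against the percentage of pseudogenes in each bin of 5 points. The outlined bars, for the 147 pseudogenes with at least 5 TPM, pile up at the left (median 1.34%), and the grey bars, for the 9791 others, at the right (median 85.3%).

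The relation between copy and parent is easiest to see in stretches of 81 bases of the coding sequence. All sequences are from the GENCODE M21 transcripts (assembly mm10), written 5′ to 3′ along the transcript, and capitals mark the bases at which a copy differs from its parent. The examples were chosen after their values were seen, to show an identical copy, copies with 1 difference, and copies with several. Atp5l, which encodes a subunit of the mitochondrial ATP synthase, had 2 copies. The stretch covers bases 14 to 94 of its coding sequence, and lies at chr5:24581769-24581849, minus strand, in Gm10221 and at chr6:66746028-66746108, plus strand, in Gm4045.
Atp5l: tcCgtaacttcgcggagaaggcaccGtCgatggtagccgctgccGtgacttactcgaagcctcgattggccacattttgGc
Gm10221: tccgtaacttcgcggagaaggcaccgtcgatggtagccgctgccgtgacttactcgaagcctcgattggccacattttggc
Gm4045: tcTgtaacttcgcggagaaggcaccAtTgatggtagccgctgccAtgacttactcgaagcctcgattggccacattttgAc

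Gm10221 was identical to the Atp5l message over its whole 309 bases and had no own word. The first program gave it 146 TPM in replicate 1 and 128 TPM in replicate 2, and the second listed it at 0 in both. Gm4045, with 6 mismatches in all and 81 own words of 280, had 46.7 and 45.4 TPM by the first program and 41.2 and 36.7 TPM by the second. In this pair the copy with sequence of its own was placed alike by both programs, and the identical copy was not. The pair does not stand for the whole set. By the second program, 39 of 68 copies without an own word reached 5 TPM in both libraries, against 25 of 79 with one.

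Rpl27a, a protein of the large ribosomal subunit, also had an identical and a diverged copy. The stretch covers bases 353 to 433 of the coding sequence, at chr3:24333420-24333500, plus strand, in Gm7536 and at chr13:98904576-98904656, plus strand, in Gm5453.
Rpl27a: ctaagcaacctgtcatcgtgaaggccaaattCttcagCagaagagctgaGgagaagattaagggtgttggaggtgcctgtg
Gm7536: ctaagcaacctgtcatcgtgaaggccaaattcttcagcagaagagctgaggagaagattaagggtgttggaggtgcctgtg
Gm5453: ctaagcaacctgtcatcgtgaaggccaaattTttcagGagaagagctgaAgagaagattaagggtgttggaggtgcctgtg

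Here the TPM of each copy was within 2-fold between the programs. The split between parent and copies was not alike. The copies held 36.1% of the family's reads by the first program and 57.6% by the second. Rpl27a itself had a mean of 584 TPM by the first and 325 TPM by the second. Gm7536, without an own word, had 1082 and 1099 TPM by the first program and 1326 and 1459 TPM by the second. Gm5453, with 99 own words of 417, had 9.60 and 9.25 TPM against 10.5 and 10.6 TPM.

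Copies with a single mismatch to the parent also differed in outcome. Mpc1 encodes a subunit of the mitochondrial pyruvate carrier, and Llph a nucleolar protein. Bases 1 to 81 of each coding sequence, starting at the start codon, lie at chr12:110858814-110858894, minus strand, in Mpc1-ps and at chrX:13218522-13218602, minus strand, in Llph-ps2.
Mpc1: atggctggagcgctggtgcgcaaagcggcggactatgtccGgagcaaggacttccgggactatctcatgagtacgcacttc
Mpc1-ps: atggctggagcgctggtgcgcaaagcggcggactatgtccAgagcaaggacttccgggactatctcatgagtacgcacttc
Llph: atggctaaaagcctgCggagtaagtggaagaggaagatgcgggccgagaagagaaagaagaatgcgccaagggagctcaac
Llph-ps2: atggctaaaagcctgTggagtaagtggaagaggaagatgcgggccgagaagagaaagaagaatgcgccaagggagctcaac

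Mpc1-ps had 31 own words of 300. The first program placed 995 reads on it in replicate 1 and 1090 reads in replicate 2 (180 and 184 TPM), and the second placed 2.76 and 3.11 reads (0.270 and 0.283 TPM). Llph-ps2 had 16 own words of 363, with 125 and 98.0 TPM by the first program and 98.0 and 68.6 TPM by the second. The first copy had almost no level in one program and the second had a level in both.

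With more differences the outcomes still varied. Snrpert is a copy of Snrpe, which encodes a core protein of the spliceosomal small nuclear ribonucleoproteins, and Gm13687 was the most diverged copy of the set. The stretch of Snrpert, at chr2:131322124-131322204, minus strand, matches bases 163 to 243 of the Snrpe coding sequence, and that of Gm13687, at chr2:80499363-80499443, plus strand, matches bases 149 to 229 of Mrps36.
Snrpe: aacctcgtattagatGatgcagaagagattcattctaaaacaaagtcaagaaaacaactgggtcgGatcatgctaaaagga
Snrpert: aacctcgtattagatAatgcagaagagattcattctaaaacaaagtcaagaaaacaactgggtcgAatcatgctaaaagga
Mrps36: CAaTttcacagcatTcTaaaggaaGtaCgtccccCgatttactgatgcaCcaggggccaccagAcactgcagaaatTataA
Gm13687: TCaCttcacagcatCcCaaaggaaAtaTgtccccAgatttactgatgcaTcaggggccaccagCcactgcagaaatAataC

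Snrpert had 71 own words of 249 and 46.5 and 37.5 TPM in the first program, but 0.218 and 0.204 TPM in the second. Gm13687 had 224 own words of 252 and stood at 15.3 and 6.27 TPM by the first program and 25.7 and 11.5 TPM by the second. Its expected counts were whole numbers, 63.0 and 28.0 reads. For Gm13687 the 2 libraries differed more than the 2 programs did.

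The copies were described next by the role of the parent. Copies of cytosolic ribosomal protein genes were the largest class with 53 of the 147, and held 56.8% of the summed level. The highest was Gm14303, a copy of Rps29 of the small subunit, at chr2:172509521-172509691. It had 2513 TPM in replicate 1 and 2613 TPM in replicate 2, from 3055 and 3575 reads on a transcript of 171 bases whose effective length was 39.9 bases in replicate 1. The second program listed it at 0 in replicate 1 and at 421 TPM in replicate 2. Short transcripts of this kind turn few reads into a high TPM, and 13 of the 147 had an effective length under 100 bases in replicate 1. The extreme was Gm10060, a copy related to Nsfl1c and outside the naming rule, where 7 and 2.04 reads became 35.8 and 9.53 TPM at an effective length of 6.41 bases in replicate 1.

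Other ribosomal copies split between the programs in both ways. Rps23-ps1 had 974 and 980 TPM by the first program and 1315 and 1396 TPM by the second. Gm10443, a copy of Rps28, had 869 and 908 TPM in the first and was listed at 0 and at 0.416 TPM in the second. Rpl38-ps2 had 633 and 723 TPM and was listed at 0 in both libraries, and Gm12918, a copy of Rpl13, had 117 and 140 TPM and was also listed at 0. None of these 4 had an own word, and all 4 were identical to their parents. Gm11518 and Rpl27-ps3, identical to each other and to Rpl27, each had 390 and 346 TPM against 254 and 235 TPM.

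Some ribosomal copies had more in the second program. Rpl28-ps1 had 231 and 237 TPM in the first and 653 and 681 TPM in the second. Rps16-ps2 had 131 and 107 TPM against 434 and 443 TPM, and Gm4332, a copy of Rps20, had 37.8 and 36.4 TPM against 154 and 166 TPM. The widest gap in this direction was Gm10163, a copy of Rpl21, with 25.1 and 18.3 TPM against 314 and 310 TPM. Rpl17-ps8 had 6.74 and 7.16 TPM against 46.7 and 46.9 TPM. For these 5 copies the libraries lay closer together than the programs, and the values of the 2 programs did not overlap.

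Copies of respiratory chain and ATP synthase genes numbered 11 and held 10.9% of the summed level. Ndufb4c, a copy of the complex I subunit gene Ndufb4, had 882 and 803 TPM by the first program and 614 and 552 TPM by the second. Gm12338, a copy of the cytochrome c oxidase subunit gene Cox7c, had 355 and 344 TPM against 364 and 412 TPM. Gm10108, a copy of the cytochrome c gene Cycs, had 159 and 139 TPM against 127 and 115 TPM. These 3 had a level in both programs. None of the 11 was at least 2-fold higher in the second program in both libraries. Of all 147 copies only 14 (9.52%) were, so none among 11 does not set this class apart.

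The 5 copies of chaperone and cyclophilin genes held 10.3% of the level, almost all of it on Gm10123, a copy of Ppia. Ppia encodes cyclophilin A, a peptidyl-prolyl isomerase. Gm10123 had 1468 and 1507 TPM by the first program and 2070 and 2333 TPM by the second, at chr9:96895658-96896147. The next highest copy of this class was Ptges3-ps, a copy of a gene for an Hsp90 co-chaperone, with 24.9 and 34.9 TPM by the first program and a level of 0 and 15.2 TPM by the second.

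The ubiquitin and proteasome class had 9 copies. Gm10241, a copy of Sumo2 for a ubiquitin-like modifier, had 245 and 200.1 TPM against 63.9 and 23.4 TPM. Gm6361, a copy of the ubiquitin-conjugating enzyme variant gene Ube2v2, had 149 and 123 TPM against 105 and 98.1 TPM. Both were identical to their parents, and the programs were within 2-fold of each other only for Gm6361.

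The remaining named classes were smaller. Among 7 chromatin and nuclear copies, Gm15387, a copy of Hmgb1, had 23.1 and 26.3 TPM against 81.2 and 88.9 TPM, and Gm10182, a copy of Hmgn2, had 24.6 and 16.1 TPM and was listed at 0 in the second program. Among 6 copies of glycolysis and citric acid cycle genes, Pgam1-ps2 had 81.02 and 72.65 TPM against 43.8 and 82.4 TPM, and Gm7336, a copy of Gapdh, had 28.7 and 33.3 TPM against 38.2 and 42.7 TPM. The values of the 2 programs overlapped for Pgam1-ps2 and not for Gm7336.

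Among 4 copies of translation factor genes, Tpt1-ps3 had 115 and 81.1 TPM against 295 and 313 TPM, and Gm6863, a copy of Naca, had 9.68 and 13.1 TPM against 0.212 and 0.188 TPM. The 2 copies of 14-3-3 genes were Gm4202 (parent Ywhaz), with 69.0 and 92.6 TPM against 45.2 and 183 TPM, and Gm2423 (parent Ywhaq), with 40.0 and 35.0 TPM against 0.757 and 1.53 TPM. The cytoskeletal copy was Gm12715 of the actin gene Actg1, with 28.6 and 29.0 TPM against 0.728 and 0.519 TPM. Both directions of difference occurred again among these classes.

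The last 49 copies had parents of many roles. Gm12481, a copy of Serf2, had 429 and 433 TPM by the first program and 304 and 313 TPM by the second. Oaz1-ps, a copy of the gene for the antizyme that restrains ornithine decarboxylase, had 231 and 197 TPM against 219 and 189 TPM. Gm10095, whose best match was BC004004, had 142 and 178 TPM and was listed at 0 and at 1.52 TPM in the second program. It has 2 exons, and its alignment lay wholly outside the coding part of the BC004004 message, so it is not a typical copy.

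Mrpl23-ps1, a copy of a mitochondrial ribosomal protein gene, had 150.3 and 149.9 TPM against 102 and 93.9 TPM. Gm8186, a copy of the spliceosomal gene Snrpg, had 151 and 141 TPM against 75.6 and 84.8 TPM. Gm13736, a copy of the signal recognition particle gene Srp9, had 148 and 129 TPM against 139 and 127 TPM. Oaz1-ps and Gm13736 were the closest between programs of these 6. Trmt112-ps2, a copy of a gene for an activator of methyltransferases, stood far higher in the second program, with 7.10 and 5.49 TPM against 52.0 and 53.9 TPM. So did Gm12671, a copy of the glycolytic gene Gapdh, with 6.03 and 6.39 TPM against 33.2 and 94.0 TPM.

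**Figure D2:**
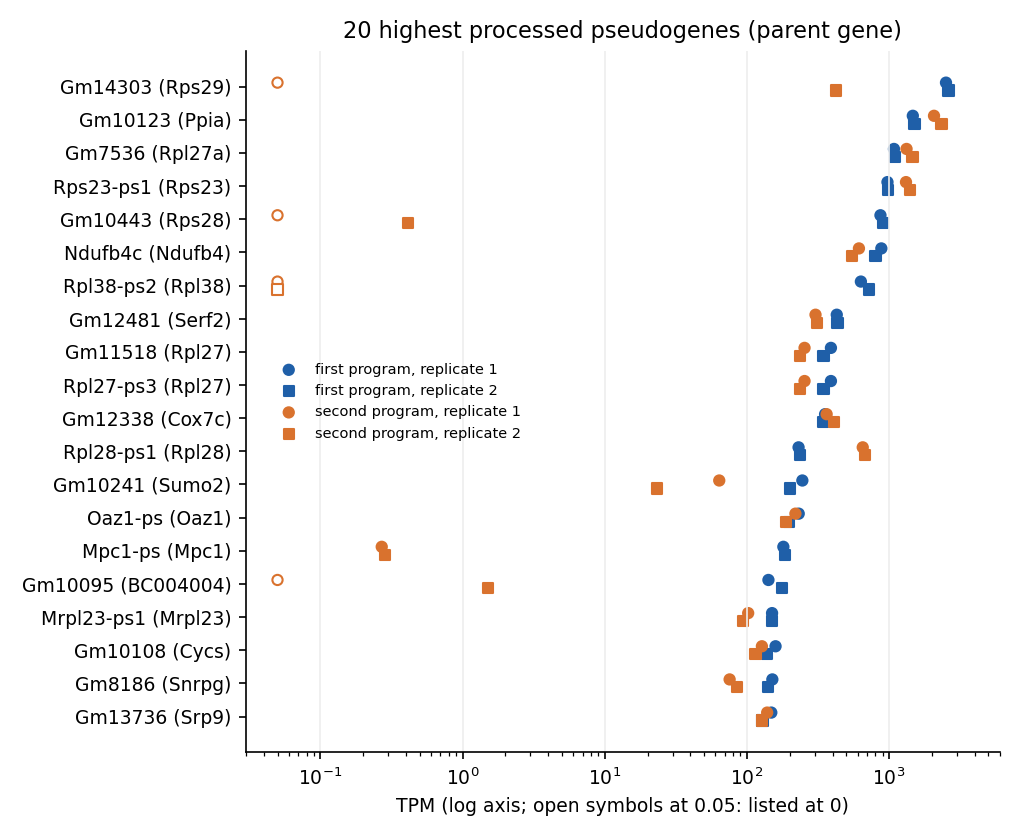
TPM on a log axis of the 20 highest pseudogenes by the first program, with the parent in parentheses; blue marks the first program, orange the second, circles replicate 1 and squares replicate 2, and open symbols at the left stand for a listed value of 0. The blue symbols of a row lie together, and the orange ones fall to 0.416 TPM or to 0 for Gm10443 and Rpl38-ps2 and stay above 500 TPM for Gm10123, Gm7536, Rps23-ps1 and Ndufb4c.

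Over the whole set, the programs were compared by the log2 ratio of TPM + 1, first over second. Both programs counted reads of the same 2 libraries, so they are not replicates of each other. At least 2-fold higher in the first program in both libraries were 75 of the 147 (51.0%). Among all 9431 genes selected by the same minimum of 5 TPM in the first program, 1.47% were, and 75 of those 139 genes were these pseudogenes. At least 2-fold higher in the second program in both libraries were 14 (9.52%), against 0.541% of the 9431. The other 58 were past 2-fold in neither direction in both libraries. The selection on the first program favours copies that are high in it, so the direction is partly fixed by the rule.

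The median log2 ratio was 1.68 over the 147 and 0.24 over the 9431 genes. With levels under 3 reads set to 3 reads and no pseudocount, the median over the 147 was 2.13. Their 129 parents had a median of 0.24, with 3 of them at least 2-fold higher by the first program and 0 by the second. By the second program, 64 of the 147 reached 5 TPM in both libraries, 51 were under 1 TPM in both, 16 of these 51 were listed at 0 in both, and 32 lay between. Over the 147, the rank correlation (Spearman's rho) of the mean levels between the programs was 0.40, and that between the libraries was 0.95 by the first program and 0.91 by the second. The points share libraries, parents and reads, so these values only describe the set.

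**Figure D3:**
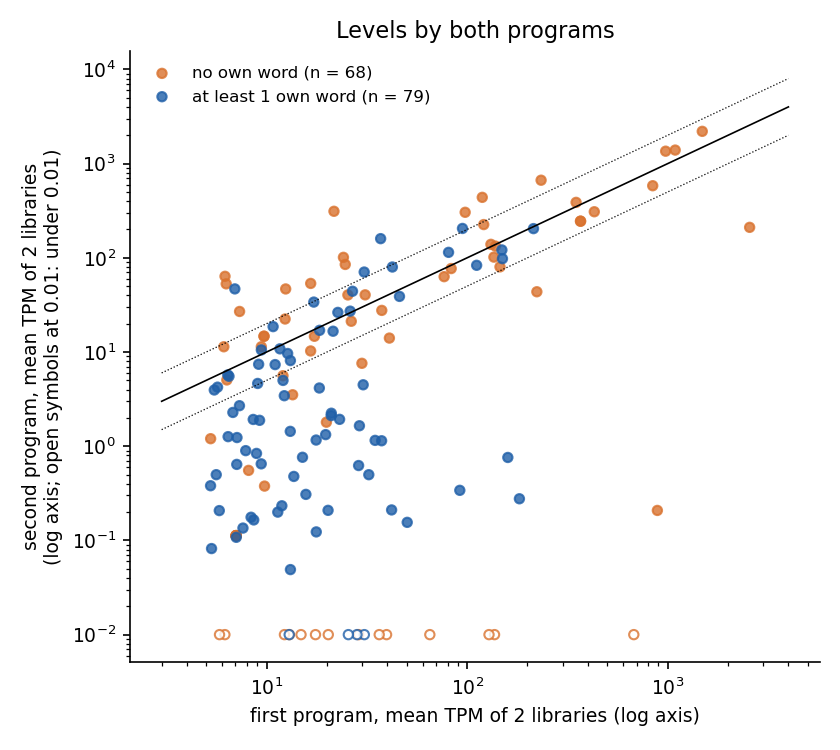
Mean TPM over 2 libraries of each of the 147 pseudogenes in the first program (x axis) and the second (y axis), both log axes; orange points have no own 31-base word, blue points at least 1, the solid line marks equality and the dotted lines 2-fold. Points lie along the line, far below it (75 copies at least 2-fold higher in the first program in both libraries) or above it (14 higher in the second), and open symbols at the bottom are levels under 0.01 TPM.

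The copies with and without own words were set side by side. Of the 68 without one, 39 reached 5 TPM in both libraries of the second program, 22 were under 1 TPM in both and 12 were listed at 0 in both. Of the 79 with at least 1 own word, 25 reached 5 TPM, 29 were under 1 TPM and 4 were listed at 0. The median log2 ratio was 0.56 without own words and 2.24 with them. Of the 37 copies whose own words made up at least 10% of all words, 7 reached 5 TPM in both libraries, 16 were under 1 TPM in both and 14 lay between, with a median log2 ratio of 2.30. Of the 25 copies with an own word and 5 TPM in the second program, 19 were within 2-fold between the programs in both libraries. All 25 had at least 5 TPM by both programs, so this closeness is partly fixed by the filter. The matching count for the 39 copies without an own word is not given, so the 19 do not tie closeness to own words.

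The class of the parent was set beside the same counts. Of the 53 ribosomal copies, 34 were at least 2-fold higher in the first program, 7 in the second and 12 in neither, with a median log2 ratio of 2.43. The 5 Rpl35a copies, which share their sequence and levels, were each counted among the 34 and are not separate observations. Of the 11 respiratory copies, 6 were higher in the first program. Of the 9 ubiquitin and proteasome copies, 3 were higher in the first and 6 in neither. Copies with any other parent gave 21 higher in the first, 3 in the second and 25 in neither, with a median of 0.64. Across all 147 copies, 51.0% were higher by the first program, while 9.52% were higher by the second. The matching shares of the 9431 genes were 1.47% and 0.541%. Classes of 11 or 9 copies are too small to be told apart from the whole set, and differences between classes were not tested.

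The gene tables also held the spread that the first program itself assigned to a count. Its posterior SD had a median of 8.56% of the mean count over the 147 pseudogenes and 0% over the 9431 genes. The median was 11.9% for copies without an own word and 7.80% for those with one. It passed 20% in both libraries for 18 copies. The deposited TPM interval, whose level is not given in the sources used here, lay above 5 TPM in both libraries for 103 of the 147. The widest gap of the second program over the first, Gm10163, had a posterior SD of 70.1% in replicate 1 and 58.3% in replicate 2. Its TPM of 25.1 and 18.3 lay above its interval in both libraries (upper end 22.7 TPM in replicate 1), and its posterior mean counts were 107 and 71.9 against expected counts of 253 and 193. The TPM lay above the interval's upper end for 5 of the 147 in replicate 1 and 6 in replicate 2.

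The reads of parent and copies were also added up. Over the 129 families, the median absolute log2 ratio of reads, scaled to each program's total, between programs was 2.02 for the copies alone and 0.063 for copies plus parent. Past 2-fold were 91 families by the copies alone and 2 by the sum, and the sum differed less in 123. The copies held a median of 2.43% of family reads by the first program and 0.741% by the second. In most families the sum is therefore nearly the parent's own value and says little about the copies. Only copies chosen by their level in the first program were counted, so a lower share by the second is partly fixed by the rule. Some families with a larger part on the copy were picked after their values were seen. The log2 ratio was -1.84 for the copy and 0.04 for the sum in the Rpl28 family, and -0.80 and 0.02 in the Rps23 family. It was 7.41 and 0.57 in the BC004004 family, and 6.63 and -0.29 in the Sarnp family. Past 2-fold by the sum were Rps12, with a log2 ratio of 1.55, and Eno1b, with 2.69. In the Eno1b family the copy held 22.1% of reads by the first program. The cause of these differences was not tested. Rps12l1, the copy of Rps12, matched another coding gene, Rps12-ps3, equally well.

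The share of a family's reads that fell on the copies varied from nearly none to most. In the Mrpl23 family it was 76.9% ± 0.930 (SD, n = 2) by the first program and 59.9% ± 1.54 by the second. In the Ndufb4 family it was 62.9% ± 1.14 and 51.4% ± 1.62. In the Llph family it was 34.8% ± 1.12 and 30.5% ± 2.08. Both programs assigned a large part of the reads of these 3 families to the copies. Ndufb4c had no own word, Mrpl23-ps1 had 24 of 539 and Llph-ps2 16 of 363. Little or none of the sequence of these copies thus tells their reads from those of the parent.

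In the Rpl27a family the share was 36.1% ± 3.16 by the first program and 57.6% ± 0.442 by the second, and in the Rps23 family 34.0% ± 2.85 and 60.1% ± 0.850. In the Rpl28 family it was 13.3% ± 0.593 and 48.8% ± 0.623. In the BC004004 family it was 31.1% ± 2.61 and 0.267% ± 0.377. For these 4 the gap between programs exceeded the spread between libraries. In both libraries, over 50% of the reads lay on copies in 2 families by the first program and in 4 by the second. The share was under 10% in 107 and 100 families. These counts leave out copies outside the set, which the first program chose, so they do not compare the programs evenly.

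**Figure D4:**
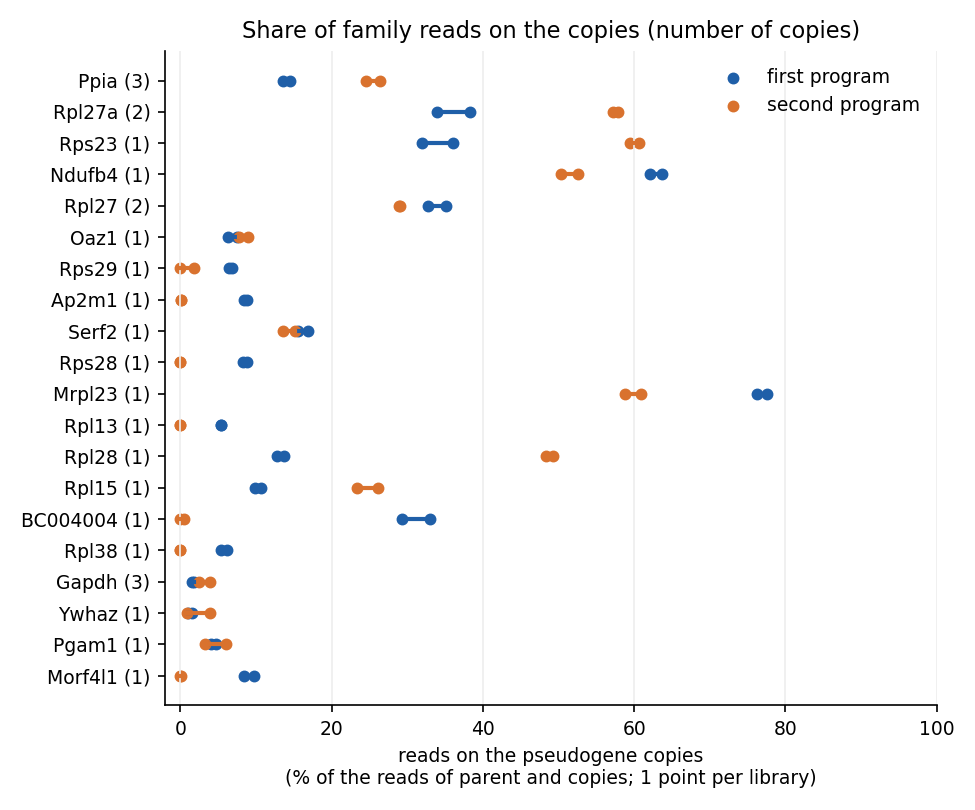
Share of reads on the pseudogene copies, in percent of the reads of parent and copies together, for the 20 families with the most reads on copies; points are the 2 libraries, blue for the first program and orange for the second, and the number of copies is in parentheses. The libraries lie close within a program, while Mrpl23, Rps23 and Rpl28 show gaps between the programs.

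Most copies stayed below their parents. In the first program 136 of the 147 had a lower TPM than the parent in both libraries and 9 a higher one. In the second, 138 were lower and 7 higher. Gm10123 was below its parent, as Ppia had 5770 TPM ± 753 (SD, n = 2) in the first program. Gm7536 was above Rpl27a at 584 ± 96.3 TPM, Ndufb4c above Ndufb4 at 193 ± 11.8 TPM, and Mrpl23-ps1 above Mrpl23 at 35.1 ± 2.05 TPM. Gm7536 and Ndufb4c had no own word and were identical to their parents over their whole length. Mrpl23-ps1 had 24 own words of 539. For Gm7536 and Ndufb4c the order against the parent therefore rests on how the program divided shared reads. The median copy stood at 5.69% of its parent's level in the first program, and the median parent at 537 TPM. All 129 parents had at least 5 TPM in both libraries, and 106 had 100 TPM or more.

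By position in the M21 annotation, 90 of the 147 lay between genes, 46 in an intron of another gene (24 on its strand and 22 on the opposite one), and 11 overlapped an exon of another gene (4 on its strand). Strand was not stated for the counting, so reads of an overlapping gene and of the copy may not be told apart. Of the 24 in an intron on the same strand, the host gene had a lower level than the copy in all but 5. The hosts had a median of 5.14 TPM, and 6 were under 1 TPM. The copies had to reach 5 TPM and the hosts did not, so this order is partly fixed by the rule. Host levels also count annotated transcripts and do not measure reads from unspliced introns. Oaz1-ps was one of the 24. The share at least 2-fold higher in the first program was 47 of 90 between genes, 11 of 24 in same-strand introns and 12 of 22 in opposite-strand introns. These shares were near the 51.0% of the whole set. The median log2 ratio between programs was 1.69 between genes, 0.53 in same-strand introns and 2.36 in opposite-strand introns. Differences by position were not tested. Of the copies over an exon, 2 of 7 on the opposite strand and 3 of 4 on the same strand were higher, too few to compare. Over all genes with at least 5 TPM the share was 1.47%.

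The 2 libraries were compared on the expected counts of the first program, scaled by TMM, over the 14078 genes with a mean count of at least 50. Of the 126 pseudogenes with that many reads, 2 were at least 2-fold higher in replicate 1, against 1.98% of all genes compared. In the other direction 1 was at least 2-fold higher in replicate 2, against 0.433%. The median log2 ratio was -0.02 over the 126 and within 1.25-fold were 96 of them (76.2%), against 77.4% of all genes compared. The count higher in replicate 1 and the share within 1.25-fold were thus near those of all genes. The count higher in replicate 2 was a single copy by the first program. By the second program it was 6, but no share over all genes is given for that program, so the 6 cannot be judged against it. In bulk tissue, fewer cells of a type and less RNA per cell cannot be told apart.

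The copies past 2-fold were Gm12751, a copy of the RNA polymerase subunit gene Polr1d, with 141 and 51.8 reads (log2 ratio 1.44), Gm10774, a copy of Polr2l, with 72.5 and 32.5 reads (1.15), and Gm12070, a copy of Gapdh, with 185 and 456 reads (-1.29). In the second program Gm12751 had 7.04 TPM and a level of 0, Gm10774 had 41.7 and 39.0 TPM, and Gm12070 had 4.08 and 7.13 TPM. None of the 3 had an own word. The naming rule also took Gm15459, a copy of the chaperone gene Hspa8, with a log2 ratio of 0.96, and, in the other direction, Gm4459, a copy of Ndufab1, with -0.72, and Rps24-ps3 with -0.67.

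**Figure D5:**
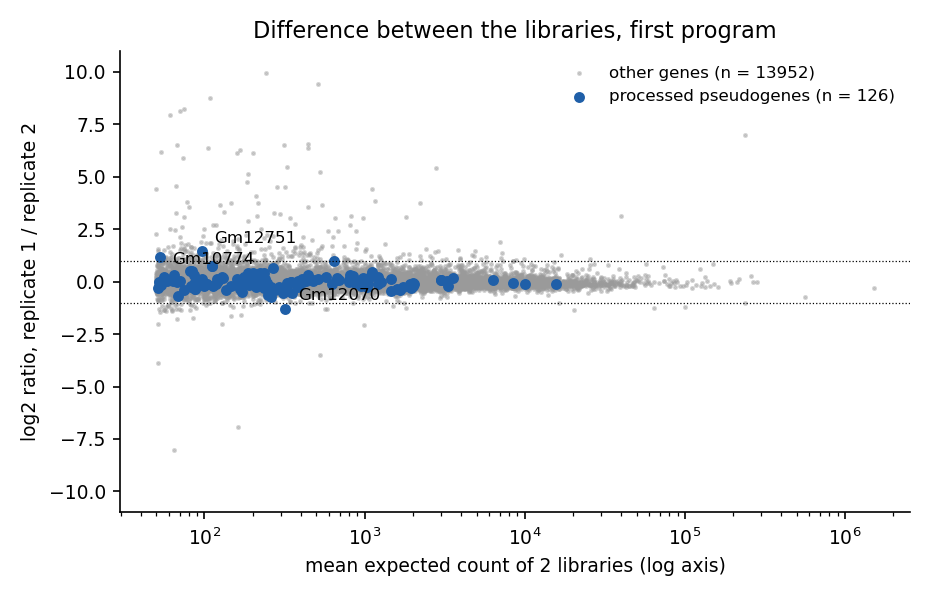
Log2 ratio of replicate 1 over replicate 2 against the mean expected count (log axis) for the 126 pseudogenes with a mean count of at least 50 (blue) and the other genes compared (grey); dotted lines mark 2-fold. The pseudogenes lie within the band of the other genes, and 3 named ones pass the lines.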

How the data were processed

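Polyadenylated RNA of 2 hippocampus libraries was analysed from the deposited tables. The assembly was mm10 per the labels, and the deposited text names annotation M21. Neither program's name or version is given in the sources used here. The gene tables of the first program give, per their headers, an expected count, a TPM and an FPKM for each gene as the authors deposited them, with a posterior mean and SD of the count and a TPM interval. The FPKM values the authors deposited served only for an alternative minimum. The transcript tables of the second program hold, per the file headers, an estimated count and TPM per transcript, summed here per gene. The 26345 rows that name no gene held 2.31e-05% and 1.64e-05% of reads and were left out.

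Ratios between programs used TPM + 1, and ratios between libraries used expected counts scaled by TMM (edgeR 4.0.16, R 4.3.3) with a prior count of 0.5 over genes with a mean count of at least 50; both count as past 2-fold at an absolute log2 ratio of 1. Each pseudogene transcript was aligned to M21 coding transcripts with blastn 2.17.0 (E-value at most 1e-10, at least 50% of the copy aligned). Own words were counted over all M21 transcripts, with a word and its reverse complement treated as the same word. The ratio and word scripts were tested on simulated data. With 1 group of 2 libraries, no p-value was computed. Counting error and the spread of 2 libraries set the precision, and the depth of each library is given with the results.

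The members and lists were chosen with earlier results of these data known. The genes named are the 20 highest by the first program, the 10 highest by the second, the 5 highest and 5 lowest ratios between programs, the 3 largest differences between libraries in each direction, the 3 genes on each side of the threshold and the 2 highest of each parent class; any other named gene was chosen after its values were seen. Alternatives were other TPM minimums, an FPKM minimum, pseudocounts, folds, scalings and count minimums, and each library on its own.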

Additional observations from a re-analysis of the deposited data

How the results depend on the processing

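Of 38 values recomputed under an alternative, 27 stayed within the limits set for no change and 11 moved. With a minimum of 2 TPM the set held 237 pseudogenes and with 10 TPM 96, while an FPKM minimum of 5 gave 129. At 4-fold, 4 pseudogenes were higher in the second program in both libraries, against 0.201% of the 9431 genes with at least 5 TPM. With a pseudocount of 0.1 the median log2 ratio between programs was 2.07, and with 1 library at a time it ranged from 1.40 to 1.74. Higher in replicate 1 by at least 2-fold were 4 with no count minimum. Higher in replicate 2 were 2 with a mean count of at least 10, 2 with no count minimum and 6 in the second program. Shares over all genes are not given for these alternative counts between libraries. The share of the total held by the 147 was 0.283% of expected counts and 1.17% of TPM in the second program. The cause was not tested beyond the construction of each alternative. No paired analysis was possible because there is 1 group. On short transcripts a level can rest on few reads: 2 of the 147 had a mean expected count under 10.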

Other observations

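The second program put levels on processed pseudogenes that the first did not. It gave 101 of them at least 5 TPM in both libraries. Of these, 37 were outside the set of 147, and 21 of the 37 were under 1 TPM in both gene tables. Gm28900 was listed at 0 and 0.36 TPM by the first program in replicates 1 and 2 and at 124 and 236 TPM by the second. Gm19220 was listed at 0 in both libraries by the first and at 96.2 and 124 TPM by the second. Vamp7-ps was likewise listed at 0 in both and at 36.3 and 34.5 TPM. Gm48789 had 4.70 and 8.27 TPM in the first program, from 2.00 and 3.93 reads, and 306 and 243 TPM in the second. Gm10359 was listed at 18.7 TPM in replicate 1 and at 0 in replicate 2 by the first program, and at 33.2 and 94.0 TPM by the second. These genes were chosen after their values were seen.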
